A study of Mus musculus with 4 samples.

Results

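The 5 genes described are Spp1, Fn1, Thbs1, Vcan and Ecm1, each of them 1 row of the 27998 genes in the count matrices. All 5 encode matrix or matricellular proteins that phagocytes secrete, and they were read in 6 monocyte or macrophage states, in tumour cells and in the other cell classes of mouse pleural fluid, under 4 treatments. The set was chosen by measured values of these same data, Spp1 and Fn1 for their large differences after LNP-cGAMP and Vcan because it led a monocyte cluster, so the levels of these genes in that comparison, in the class and within its states, and the placing of Vcan among monocytes are given as a description.

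C57BL/6 mice carried malignant pleural effusions of Lewis lung carcinoma (LLC), a mouse lung tumour line, and were treated on day 11 with PBS, with 1 µg LNP-cGAMP, with 30 µg anti-PD-L1 (clone 10F.9G2) or with both agents, called the combination here. LNP-cGAMP is a lipid nanoparticle that carries cGAMP, the cyclic dinucleotide that activates the interferon-inducing adaptor STING, and anti-PD-L1 blocks an inhibitory ligand of T cells. Effusion cells were taken on day 13, 48 h after treatment, freed of red cells by lysis, and pooled from 3 mice for each single-cell RNA library. Each treatment is therefore 1 library: no difference has a replicate check, no test was run, and every interval below covers counting error only.

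Osteopontin, the product of Spp1, and fibronectin, the product of Fn1, are ligands of integrins through an Arg-Gly-Asp motif, and osteopontin also binds CD44. Thrombospondin-1 (Thbs1) binds CD36 and CD47 and activates latent TGF-beta, versican (Vcan) is a chondroitin sulfate proteoglycan that binds hyaluronan, and Ecm1 is a secreted glycoprotein that binds other matrix proteins. Monocytes are known to carry versican and thrombospondin-1, resident macrophages of serous cavities are known for fibronectin, and osteopontin is a familiar product of tumour-associated macrophages. RNA was measured here, not secreted protein.

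In GRCm38 (GENCODE M21), Spp1 lies at chr5:104435118-104441050 on the plus strand, Fn1 at chr1:71585520-71653200 on the minus strand, Thbs1 at chr2:118111876-118127133 on the plus strand, Vcan at chr13:89655312-89742509 on the minus strand and Ecm1 at chr3:95734147-95739569 on the minus strand. Spp1 and Ecm1 were the pair that was higher in LNP-cGAMP, and the 250 bases before their start sites are shown (RefSeq, GRCm38.p6; chr5:104434861-104435110, plus strand, and chr3:95739570-95739819, minus strand). The motifs searched, on both strands, were the interferon-stimulated response element (GAAA, any 2 bases, GAAA), AP-1 (TGANTCA), PU.1 (GAGGAAGT), Runx (AACCACA), the cAMP response element (TGACGTCA) and the TATA box (TATAAA). Capitals mark the matches, none of which overlap.
Spp1: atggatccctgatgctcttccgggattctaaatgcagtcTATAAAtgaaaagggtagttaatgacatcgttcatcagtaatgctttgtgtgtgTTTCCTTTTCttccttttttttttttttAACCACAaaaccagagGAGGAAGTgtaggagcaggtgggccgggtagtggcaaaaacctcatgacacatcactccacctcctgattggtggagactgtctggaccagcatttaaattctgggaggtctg
Ecm1: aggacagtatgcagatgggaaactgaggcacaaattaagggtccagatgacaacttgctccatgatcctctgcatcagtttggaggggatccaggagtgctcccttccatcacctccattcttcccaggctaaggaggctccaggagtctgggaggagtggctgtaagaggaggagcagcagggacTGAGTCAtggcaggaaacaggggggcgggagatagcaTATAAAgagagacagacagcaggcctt
The Spp1 window held 1 match each to the interferon-stimulated response element (reverse strand, first base at -157 from the start site), PU.1 (-113), Runx (-129) and the TATA letters (-211). Of the 32851 promoter windows of this length, 2.98% hold the first, 2.44% the second, 4.40% the third and 12.4% the last. The Ecm1 window held an AP-1 match at -64 and a TATA box at -27, found in 6.75% and 12.4% of windows. A second Spp1 window of the table, which begins inside the gene, and the Vcan window held none of these motifs. Fn1 and Thbs1 had no window in the reference and were not searched. The matches describe the sequence only.

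The libraries held 68828158 to 88855120 UMIs (unique molecular identifiers, each counting 1 RNA molecule), and the cells kept numbered 2838 for PBS, 3842 for LNP-cGAMP, 3396 for the antibody and 3508 for the combination. Cells were assigned to classes by marker genes, none of which is among the 5 genes: 1616, 2267, 2033 and 2542 cells, in the same order, were monocytes or macrophages (Csf1r in 94% of them, C1qa in 94%), with a median of 34961.5, 20659, 32430 and 21907.5 UMIs. The interferon-response list, a check of the labels, had 11 of 11 measured genes at least 1.5-fold higher in LNP-cGAMP than in PBS, where 11.7% of all genes were, and 9 of 11 in the combination, where 4.31% were. Anti-PD-L1 had 3 of 11 (Isg15, Ifit2 and Cxcl10), where 1.71% were. Against LNP-cGAMP, 8 of the 11 were at least 1.5-fold lower in the combination and 0 higher, where 2.75% of all genes were lower. Their median log2 ratio was -0.78, so the combination had a weaker interferon response than LNP-cGAMP alone. Between 14 and 21 cell barcodes were shared by any 2 libraries, against 1.42 to 1.98 expected by chance.

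The pools also differed in sex-linked RNA, which the labels do not mention. Among monocyte/macrophage cells that could be called, no cell in PBS or LNP-cGAMP carried Xist without Y-linked UMIs, whereas 67.6% did after anti-PD-L1 and 76.9% after the combination. In the combination the 447 cells with Y-linked UMIs and the 1488 with Xist differed widely: Saa3, an acute-phase gene, stood at 20788 counts per 1000000 UMIs (CPM) in the former and 1553 in the latter, and Isg15, an interferon-stimulated gene, at 111 and 408. In the whole class Isg15 stood at 180 CPM in PBS and 727 in LNP-cGAMP, so the combination cells with Y-linked UMIs were below both. Another 520 cells had neither mark. Sex and mouse cannot be told apart. Levels of the combination are also given by these marks for the class and for states with enough cells of both, whereas Ccl8 cells, shares of cells and co-detection were not split.

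Monocytes and macrophages held most of the UMIs of 4 of the genes in all libraries. They held 81.4% to 94.8% of all Fn1 UMIs in kept cells, 91.4% to 95.2% of Thbs1, 91.9% to 95.1% of Vcan and 96.2% to 98.0% of Ecm1. Spp1 was less tied to them: their share was 59.8% in PBS, where tumour cells held another 33.5%, and 83.7% to 88.2% in the treated libraries. Such shares also follow the depth of a class. Neutrophils, 31.3% of kept cells in PBS, had a median of 2106 UMIs there. Their Thbs1 stood at 266 CPM against 278 in the monocyte/macrophage class, and their Vcan at 116 against 170. Fn1 (192 against 630) and Ecm1 (82.1 against 683) were further apart. In LNP-cGAMP neutrophils, Thbs1 and Vcan stood at 116 and 55.4 CPM against 251 and 165. Of the 887 PBS neutrophils, 100 also passed another class's threshold.

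LNP-cGAMP cells had more Spp1 and Ecm1 and far less Fn1 RNA than PBS cells, whereas Thbs1 and Vcan were near the same level in the class as a whole. In the monocyte/macrophage class, Spp1 stood at 162 CPM in PBS, 955 in LNP-cGAMP, 172 after anti-PD-L1 and 490 after the combination. Fn1 stood at 630, 78.1, 436 and 235 CPM in the same order, so its order of libraries was the reverse of that of Spp1, except that PBS and anti-PD-L1 stayed close for Spp1 (a 1.06-fold difference). Ecm1 stood at 683, 1237, 616 and 874 CPM. Thbs1 spanned only 220 to 278 CPM over the 4 libraries and Vcan 142 to 219.

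**Figure D1:**
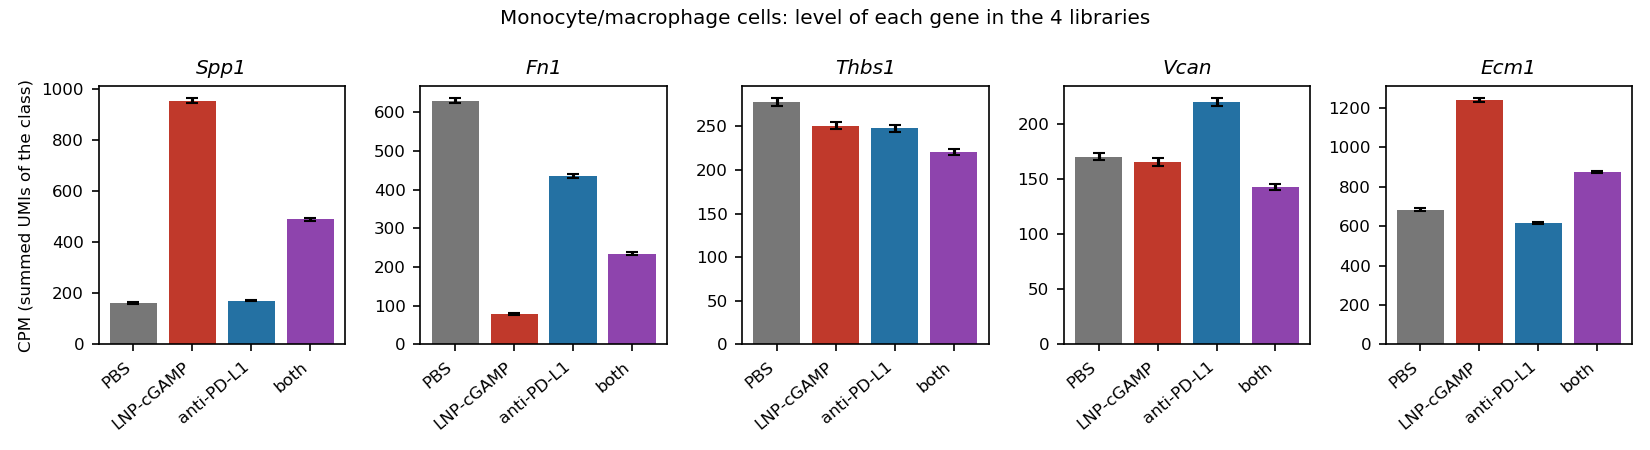
Bars give CPM of the summed monocyte/macrophage cells of each library, with exact 95% Poisson intervals for counting error; each gene has its own axis, which starts at 0, and "both" is the combination. Spp1 and Ecm1 are highest and Fn1 lowest in LNP-cGAMP, while Thbs1 stays between 220 and 278 CPM.

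Against PBS, LNP-cGAMP was 5.91-fold higher for Spp1 (95% interval 5.78 to 6.04) and 1.81-fold higher for Ecm1 (1.79 to 1.84), and PBS was 8.07-fold higher than LNP-cGAMP for Fn1 (7.81 to 8.34). At a threshold of 1.5-fold (on CPM + 10), 2 of the 5 genes were higher and 1 lower, where 11.7% of the 3274 genes measured in the class were higher and 8.03% lower. Nothing is read from these counts, since this contrast chose members of the set. Thbs1 and Vcan, with ratios of 0.903 and 0.971, were within 1.5-fold.

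Anti-PD-L1 alone left all 5 genes within 1.5-fold of PBS in the class, a threshold that 1.71% of genes passed upward and 0.794% downward. The largest ratios were those of Fn1, which PBS held at 1.45-fold the level of anti-PD-L1, and of Vcan, 1.29-fold higher in anti-PD-L1. Within that pool the 590 cells with Y-linked UMIs had 285 CPM of Fn1 and 148 of Thbs1, and the 1233 with Xist had 518 and 288. Spp1 was alike in both as summed, at 172 and 179 CPM, but not within all of the states described below. With Y-linked UMIs and with Xist it stood at 161.5 and 58.4 CPM in Lyve1 cells and 56.8 and 138 in Ccr2 cells. In Ccl8 cells it stood at 42.6 (25 cells) and 333 (31 cells), and in the remainder at 181 and 199.

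The combination lay between PBS and LNP-cGAMP for Spp1 and Fn1. Spp1 was 3.03-fold higher than in PBS (2.96 to 3.10) and Fn1 was 2.68-fold lower (2.63 to 2.74), so that 1 gene was higher and 1 lower, where 4.31% and 1.62% of all genes were. Against LNP-cGAMP, Fn1 was 3.01-fold higher in the combination and Spp1 was 1.95-fold lower, again 1 gene each way, where 3.54% of genes were higher and 2.75% lower. Against anti-PD-L1, Spp1 was 2.85-fold higher, and Fn1 and Vcan were 1.86-fold and 1.54-fold lower, where 2.02% of genes were higher and 1.22% lower. These comparisons share libraries with one another.

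The combination value was a sum over cells of unlike levels. Cells with Y-linked UMIs had 982 CPM of Spp1, near the 955 of LNP-cGAMP, while cells with Xist had 326 and cells with neither mark 658. Ecm1 showed the same order, at 2216, 576 and 741 CPM, and Thbs1 stood at 491, 177 and 129. Fn1 was also highest in the cells with Y-linked UMIs, at 394 CPM against 221 and 117, whereas Vcan spanned only 136 to 166. Near LNP-cGAMP in Spp1, the cells with Y-linked UMIs were far below it in Isg15 (111 against 727 CPM). With such cells alone in every library, the combination no longer differed by 1.5-fold from LNP-cGAMP in Spp1 (log2 ratio 0.049) or from anti-PD-L1 in Fn1 (log2 ratio 0.45). The 2 cell groups also differed in state: 45.2% of the cells with Y-linked UMIs and 8.80% of those with Xist were in the Saa3 state described below, and 12.1% and 1.75% in the Alox15 Prg4 state. That last state, 0.750% of the class in LNP-cGAMP, gave 4444 of the 9691 Spp1 UMIs of the cells with Y-linked UMIs. Their nearness to LNP-cGAMP in Spp1 is therefore one of sums over unlike states. Within states they had 2625 CPM against 592 in Alox15 Prg4, 684 against 771 in Lyve1 and 376 against 1080 in Ccr2.

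**Figure D2:**
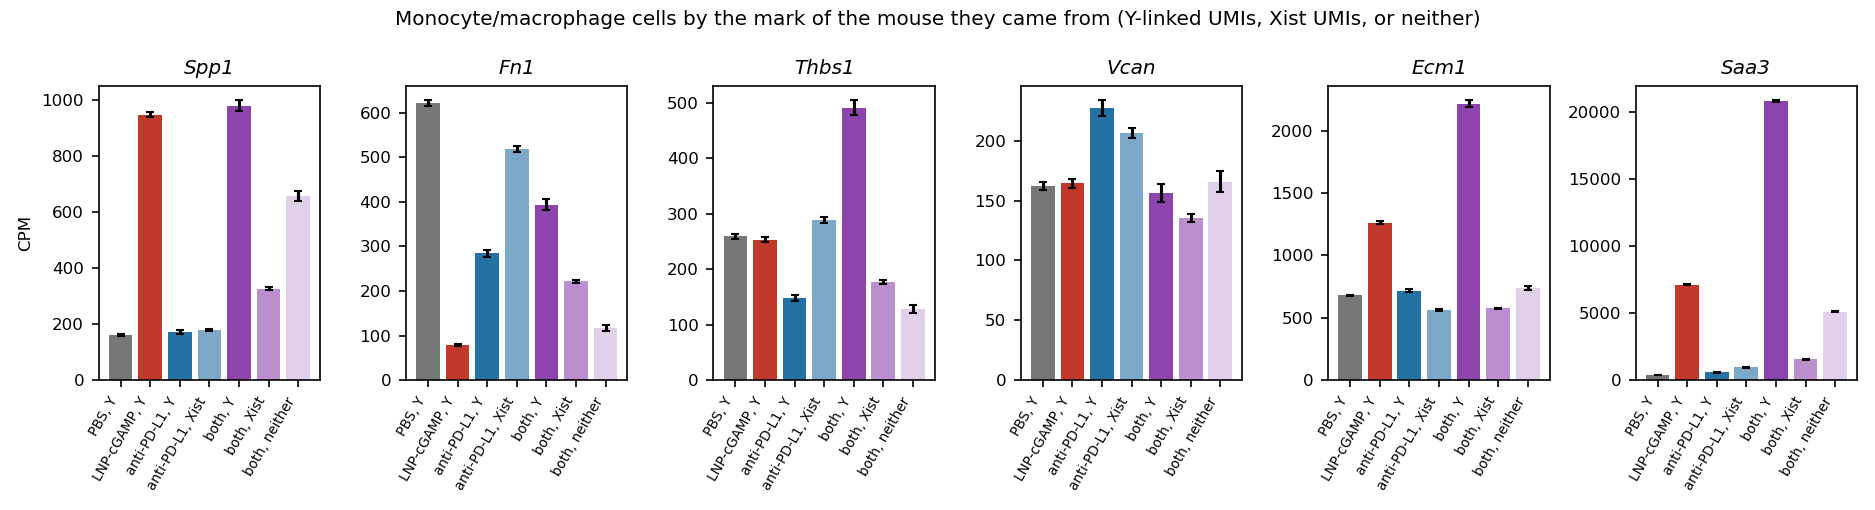
Bars give CPM in monocyte/macrophage cells split by Y-linked UMIs (Y), Xist UMIs (Xist) or neither, with exact 95% Poisson intervals; axes start at 0, and Saa3 is shown for reference. In the combination ("both"), Spp1 stands at 982 CPM in the Y cells and 326 in the Xist cells, and Ecm1 at 2216 and 576.

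The class was then divided by markers, taken in order, into 6 states and a remainder. An Alox15 Prg4 state matches large macrophages of serous cavities, Lyve1 marks resident-type macrophages, Ccr2 marks recently recruited monocytes, and Saa3, Ccl8 and Cd163 with Ccl24 mark further macrophage states; the rest had none of these. The make-up of the class moved with treatment. Ccr2 cells were 28.5% of it in PBS, 50.8% in LNP-cGAMP, 34.2% after anti-PD-L1 and 31.9% after the combination, and Saa3 cells 1.79%, 26.3%, 1.82% and 19.0%. Lyve1 cells were 37.5%, 4.76%, 32.7% and 22.0%. A state is a range of marker level rather than a type: 14.2% of the class lay within 1.5-fold of the Ccr2 threshold, and 0.627% to 10.2% within 1.5-fold of the others.

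In PBS, Fn1, Thbs1, Ecm1 and Spp1 were highest in the Alox15 Prg4 state and Vcan in the Ccr2 state. Fn1 was highest in the Alox15 Prg4 state in every library, at 4655 CPM in PBS (31 cells), 646 in LNP-cGAMP (17 cells), 3096 after anti-PD-L1 (98 cells) and 1619 after the combination (102 cells). This state was 4.82% of the class after anti-PD-L1 and 4.01% after the combination, yet it held 40.2% and 37.2% of the class's Fn1 UMIs. Thbs1 shared that pattern in part, with 1283, 742, 1261 and 1012 CPM in the Alox15 Prg4 state. Its other site was the Ccr2 state, the source of 55.0% of its UMIs in PBS.

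Vcan, taken into the set for leading a monocyte cluster, was highest in the Ccr2 state. It stood there at 651, 250, 714 and 326 CPM, and in each library no other state came above 163 CPM. The Ccr2 state held 54.6%, 66.4%, 58.3% and 49.0% of the Vcan UMIs of the class. Ecm1 had the opposite placing in PBS and anti-PD-L1, where its lowest state was Ccr2 (464 and 370 CPM) and its highest Alox15 Prg4 (1506 and 1638). Spp1 in PBS ran from 108 CPM in Lyve1 cells to 231 in Saa3 cells, with 846 in the 31 Alox15 Prg4 cells, and 59.6% of the UMIs in these last came from the top 10% of the cells.

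**Figure D3:**
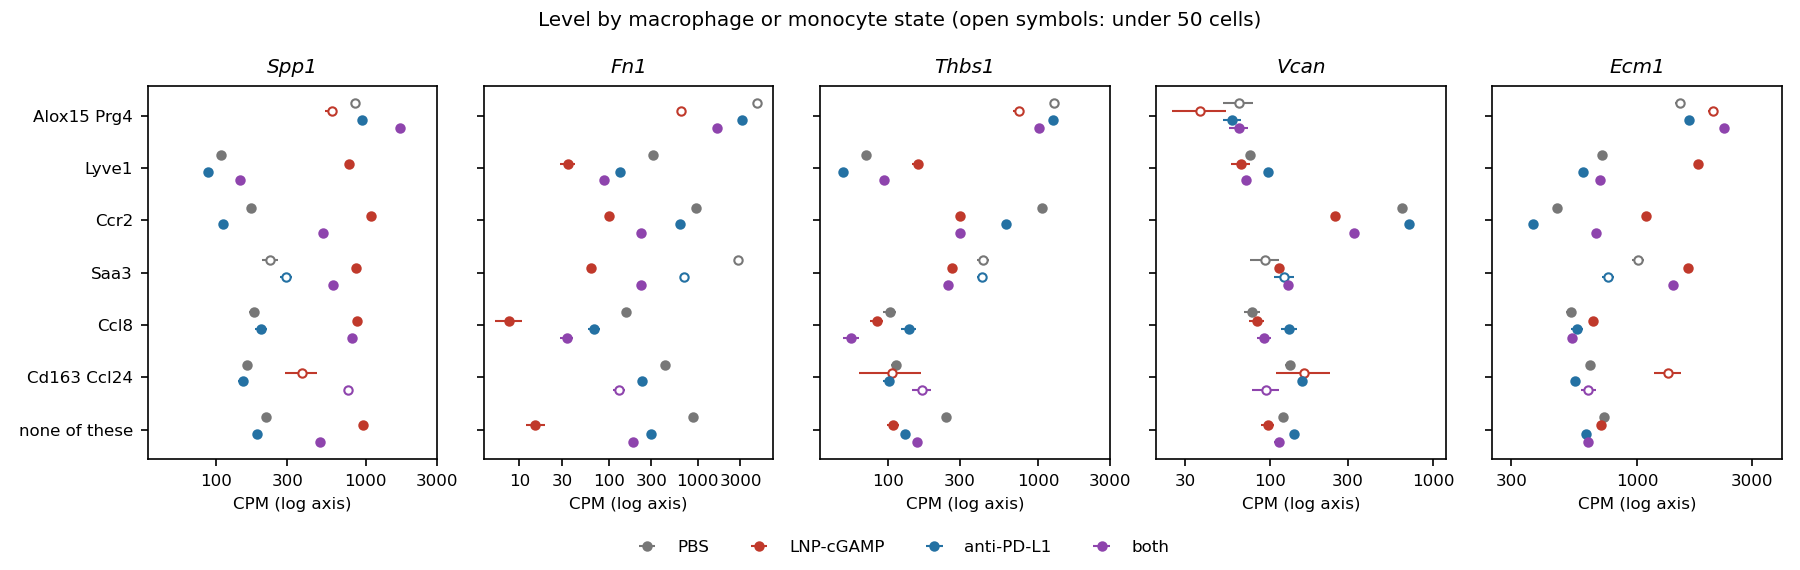
Points give CPM on a log axis for each state (rows) and library (colours), with exact 95% Poisson intervals; open points rest on under 50 cells. Within states of at least 50 cells, Spp1 is higher and Fn1 lower in LNP-cGAMP than in PBS, and Vcan and Thbs1 in the Ccr2 state fall from 651 and 1069.5 CPM to 250 and 300.4.

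In the 4 groups with at least 50 cells in both PBS and LNP-cGAMP (Lyve1, Ccr2, Ccl8 and the remainder), Spp1 was higher and Fn1 lower in each. These are cells of the libraries whose difference chose both genes, so nothing is read from the states being alike. Spp1 was 7.13-fold higher in Lyve1 cells (108 to 771 CPM), 6.26-fold in Ccr2 cells (173 to 1080), 4.92-fold in Ccl8 cells (179 to 879) and 4.41-fold in the remainder (217 to 957). Fn1 was 9.06-fold, 9.36-fold, 20.4-fold and 57.8-fold lower, the last from 876 to 15.2 CPM. The 20.4-fold and 57.8-fold values rest on few UMIs. In LNP-cGAMP, Ccl8 cells held 0.870% and the remainder 1.74% of the 3910 Fn1 UMIs of the class. Near-empty droplets accounted for an estimated 6.05 CPM of Fn1 in that class. At the 1.5-fold threshold, the share of all genes that was higher was 12.2%, 9.23%, 12.6% and 13.3% in these groups, and the share that was lower 11.9%, 5.64%, 8.74% and 10.2%. Among the 20 pairs of gene and state, 7 were higher, 7 lower and 6 within 1.5-fold, of which Spp1 and Fn1 made up 8.

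Thbs1 and Vcan, near level in the class, were both lower within the Ccr2 state. In Ccr2 cells, Thbs1 was 3.56-fold lower in LNP-cGAMP than in PBS (3.45 to 3.68), at 300.4 against 1069.5 CPM, and Vcan 2.60-fold lower (2.51 to 2.70), at 250 against 651. In the same cells 5.64% of genes were at least 1.5-fold lower. In Lyve1 cells Thbs1 went the other way, 2.20-fold higher (71.2 to 157 CPM), while Vcan was within 1.5-fold (75.3 and 66.0 CPM). Thbs1 was 2.25-fold lower in the remainder (243 to 108 CPM) and within 1.5-fold in Ccl8 cells (102 and 83.7). Vcan was within 1.5-fold in both (121 and 96.7 CPM, and 77.1 and 82.8). Ccr2 cells, where both genes were high in PBS, were 50.8% of the class in LNP-cGAMP against 28.5%, with a lower CPM of each. Their share of the class's UMIs was 52.5% against 55.0% for Thbs1 and 66.4% against 54.6% for Vcan.

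Ccr2 cells of LNP-cGAMP also carried less Ccr2, with a median of 7.91 counts per 10000 UMIs against 11.6 in PBS. Both genes were lower in LNP-cGAMP also among cells of like Ccr2 level. At 16 or more counts per 10000, Thbs1 stood at 1980 CPM in PBS and 355 in LNP-cGAMP, and Vcan at 1299 and 464. At 4 to 8, Thbs1 stood at 472 and 256 and Vcan at 320 and 192. Within PBS both genes were higher at higher Ccr2, as was Fn1 (593, 901 and 1640 CPM over the 3 ranges), while Spp1 was not (176, 179 and 157).

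With the states of every library weighted as in PBS, the picture of the class changed for these genes. Thbs1 was then 1.58-fold and Vcan 1.57-fold lower in LNP-cGAMP than in PBS, in place of 1.11-fold and 1.03-fold. Spp1 remained 4.95-fold higher and Ecm1 2.08-fold, and Fn1 was 12.4-fold lower. Against PBS at equal shares, Fn1 was also 2.02-fold lower in anti-PD-L1 and 3.90-fold lower in the combination.

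**Figure D4:**
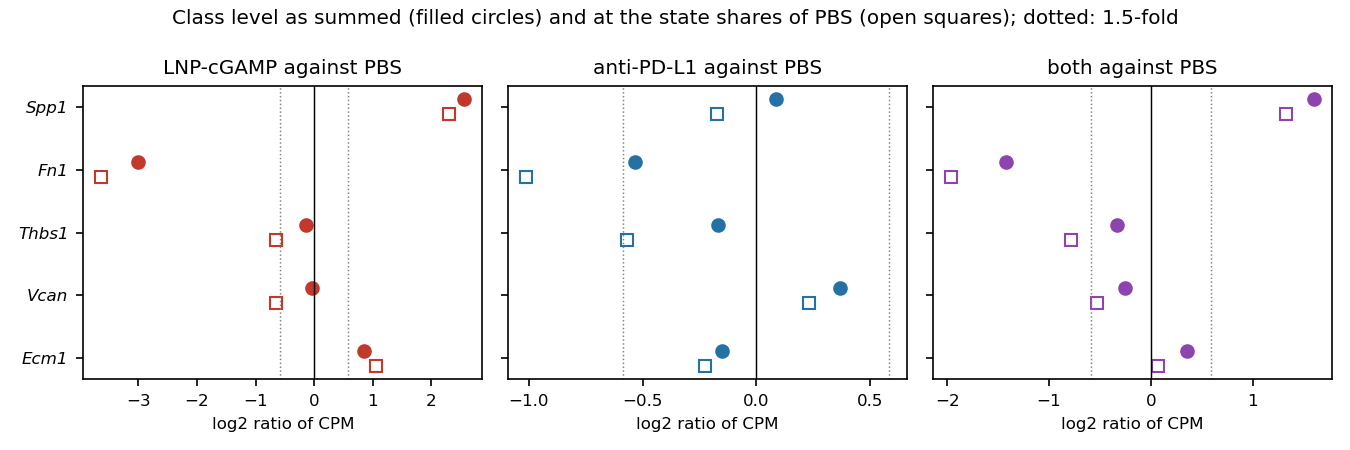
Log2 ratios of CPM to PBS for the monocyte/macrophage class, as summed (filled circles) and with the states weighted as in PBS (open squares); dotted lines mark 1.5-fold, and each panel has its own axis. Thbs1 and Vcan sit near 0 as summed in LNP-cGAMP and at 1.58-fold and 1.57-fold lower with equal state shares.

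Ecm1 was higher in LNP-cGAMP in Lyve1 cells (1784 against 715 CPM, 2.50-fold) and Ccr2 cells (1091 against 464, 2.35-fold). It was within 1.5-fold in Ccl8 cells (656 and 530 CPM) and in the remainder (704 and 726). Of its class UMIs in LNP-cGAMP, 39.4% came from Saa3 cells, which had 1620 CPM.

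Anti-PD-L1 alone, with no gene past 1.5-fold in the class, had several past it within states. Fn1 was lower than in PBS in all 5 states with enough cells: 133 against 315 CPM in Lyve1, 625 against 957 in Ccr2, 69.3 against 157 in Ccl8, 237 against 434 in Cd163 Ccl24 and 302 against 876 in the remainder. Over all genes, 0.682%, 1.71%, 1.24%, 0.754% and 0.972% were at least 1.5-fold lower in these states. The Alox15 Prg4 cells, high in Fn1, were 4.82% of the class against 1.92% in PBS, and without them Fn1 was lower in the class too (log2 ratio -0.93). Thbs1 was also lower in Ccr2 cells (612 against 1069.5 CPM) and in the remainder, and Spp1 in Ccr2 cells (111 against 173). Cells with Y-linked UMIs and cells with Xist did not always share these differences: in Ccr2 cells, Fn1 stood at 806 CPM in the 171 with Y-linked UMIs, within 1.5-fold of PBS, and 554 in the 452 with Xist. Spp1 stood there at 56.8 and 138 CPM, the latter within 1.5-fold of PBS. In Cd163 Ccl24 cells, Fn1 stood at 174 CPM in the 56 with Y-linked UMIs and 296 in the 65 with Xist, the latter within 1.5-fold. In the remainder Thbs1 stood at 70.2 and 164 CPM, the latter again within 1.5-fold. Vcan was higher in Ccl8 cells, 131 against 77.1 CPM, where 1.72% of genes were.

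The combination also differed from PBS within the states. In Ccr2 cells Spp1 was 3.03-fold higher (522 against 173 CPM), and Fn1 (232 against 957), Thbs1 (301 against 1069.5) and Vcan (326 against 651) were lower, where 4.72% of genes were higher and 2.41% lower. The 86 Ccr2 cells with Y-linked UMIs and the 489 with Xist both lay below PBS, with 319 and 252 CPM of Fn1, 407 and 355 of Thbs1 and 302 and 354 of Vcan. Spp1 stood above PBS in both, at 376 and 507 CPM, but Ecm1 stood at 1929 and 479, against 464 in PBS. In Lyve1 cells as summed, Fn1 was the one gene past 1.5-fold, at 88.1 against 315 CPM, where 0.993% of genes were lower. That sum joined 64 cells with Y-linked UMIs, which had 684 CPM of Spp1, 2107 of Ecm1 and 260 of Thbs1, and 421 with Xist, which had 81.1, 567 and 81.3. PBS had 108, 715 and 71.2, so the former cells were above it for all 3 genes. In Ccl8 cells Spp1 was 4.51-fold higher and Fn1 and Thbs1 lower, where 8.18% and 5.22% of genes were, and the remainder showed the same 3 genes, with shares of 4.80% and 2.62%. In the remainder, the 31 cells with Y-linked UMIs had 230 CPM of Spp1 and 276 of Thbs1, near or above the 217 and 243 of PBS, and the 244 with Xist had 454 and 164. Fn1 was below the 876 CPM of PBS in both, at 253 and 206.

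In the presence of LNP-cGAMP the antibody went with more Fn1. The combination had more than LNP-cGAMP in the 5 states compared, from 2.27-fold in Ccr2 cells (232 against 102 CPM) to 12.6-fold in the remainder (190 against 15.2). Near-empty droplets accounted for an estimated 6.05 CPM of Fn1 in the LNP-cGAMP class, so the fold in the remainder rests on a low level. Both marks stood above LNP-cGAMP wherever they were split: 127 CPM with Y-linked UMIs and 85.7 with Xist against 34.7 in Lyve1, 319 and 252 against 102 in Ccr2, 235 and 316 against 63.0 in Saa3, and 253 and 206 against 15.2 in the remainder. Over all genes, 8.31% were at least 1.5-fold higher in Lyve1 cells, 0.945% in Ccr2, 1.36% in Saa3, 1.48% in Ccl8 cells and 4.48% in the remainder. Spp1 was 5.28-fold lower in Lyve1 cells (146 against 771 CPM), 2.07-fold lower in Ccr2 cells and 1.94-fold lower in the remainder, where 8.22%, 1.13% and 3.45% of genes were. Ecm1 was lower too in Lyve1 (697 against 1784 CPM) and Ccr2 cells (675 against 1091), and Thbs1 in Lyve1 cells (93.7 against 157). The cells with Y-linked UMIs lay the other way, above LNP-cGAMP, at 2107 and 1929 CPM of Ecm1 and 260 of Thbs1, so these lower sums rest on the other cells. Spp1 was within 1.5-fold in Saa3 cells (606 and 859 CPM) and Ccl8 cells (806 and 879). Spp1 was likewise near LNP-cGAMP in the Lyve1 cells with Y-linked UMIs (684 against 771 CPM), but in Ccr2 cells and the remainder it was below LNP-cGAMP under both marks. In Saa3 cells it stood at 651 CPM with Y-linked UMIs and 451 with Xist.

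Within a library, expression was uneven from cell to cell. In PBS Lyve1 cells, the top 10% of the cells held 80.2% of Spp1 UMIs, 77.5% of Thbs1 and 62.8% of Fn1, but 36.9% of Vcan and 28.3% of Ecm1. After each cell was thinned to 5000 UMIs, Spp1 was found in 21.1% of class cells in PBS, 59.3% in LNP-cGAMP, 17.0% after anti-PD-L1 and 42.9% after the combination (48.9%, 80.9%, 39.3% and 69.9% before thinning). Fn1 was found in 57.3%, 15.3%, 49.9% and 30.1% of thinned cells (86.1%, 29.6%, 78.2% and 54.1% before). In natural killer cells, a class that should lack Fn1, the thinned share was 0% in LNP-cGAMP (93 cells) to 15.8% in PBS (19 cells). More cells with Spp1 and fewer with Fn1 went with the changes in CPM.

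Fn1 and Thbs1 were found in the same cells more often than their separate shares would give. Both were seen in 25.4% of thinned PBS cells, where the product of the shares is 17.9%, and the ratio of the observed share to the product was 1.42 in PBS, 1.68 in LNP-cGAMP, 1.54 after anti-PD-L1 and 1.82 after the combination. Within Ccr2 cells it was 1.14, 1.57, 1.17 and 1.54. Spp1 with Fn1 gave ratios of 0.93 to 1.10 in the class.

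Genes with the pattern nearest to each of the 5 were sought by Pearson's r of log2(CPM + 10) over 22 sums of a state in a library, among 3912 genes. These sums share libraries and depth, so r is a description. Spp1 was nearest to H2-K1 (0.94), Nupr1 (0.92) and H2-D1 (0.91), Thbs1 to Tbl1xr1 (0.91), Csf2rb (0.90) and Chil3 (0.90), Vcan to Emb (0.96), Arf5 (0.95) and BC037034 (0.92), and Ecm1 to Cd37 (0.96), Tmcc1 (0.94) and Cr1l (0.91). Fn1 was nearest to Rpl7a (0.95), Eif3f (0.94) and Rpl7 (0.94), which encode ribosomal proteins and a translation initiation factor. Between the 5, r was 0.70 for Spp1 with Ecm1 and for Fn1 with Thbs1, and -0.49 for Vcan with Ecm1.

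Partners of the 5 proteins were read in the same class, from lists chosen with earlier results known. Beside the counts below, 11.7% of all genes were higher in LNP-cGAMP than in PBS and 8.03% lower, and lists of so few genes are given as single values. Of 6 measured receptor genes of osteopontin, fibronectin and thrombospondin-1, 1 was higher in LNP-cGAMP than in PBS (Itga5, the alpha chain of the fibronectin receptor, 29.6 to 56.9 CPM) and 1 lower (Cd36, 292 to 146 CPM), with a median log2 ratio of -0.36 beside 0.06 over all genes. Cd44 stood at 452 and 361 CPM and Cd47 at 433 and 625. Of 3 measured versican receptors none passed 1.5-fold. Both measured hyaluronan-related genes were lower, the receptors Lyve1 (460 to 38.6 CPM) and Stab1 (305 to 138), the first of which is also a state marker.

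Among inhibitors and cross-linkers, Timp2, an inhibitor of metalloproteinases, went from 755 to 249 CPM, and F13a1, which cross-links fibrin and fibronectin, from 480 to 177. Each was the single gene called of 2 measured in its list. F13a1 is also a marker in the gate of the monocyte/macrophage class. Of 8 other secreted matrix genes measured, Fgl2 was higher (151 to 376 CPM) and Lgals1 (1801 to 1123), Emilin1 (52.7 to 28.6) and Prg4 (44.8 to 12.4) lower, where 11.7% and 8.03% of all genes were. Prg4 is also a state marker. No gene passed 1.5-fold of the 2 measured in the TGF-beta list. No gene of the lists of proteases, of collagens and laminins, or of osteopontin relatives reached 50 CPM in the class.

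Outside the phagocytes, and aside from the few barcodes gated as fibroblasts, Spp1 was highest in tumour cells and in natural killer cells of the treated libraries. Tumour cells, gated on Cald1 (in 90%), Hmga2 (75%) and other LLC markers, numbered 39, 15, 34 and 27 and are too few to compare. Their Spp1 stood at 1944 CPM in PBS, 706 after anti-PD-L1 and 1103 after the combination, but 20 of 39, 17 of 34 and 14 of 27 of these barcodes also passed the threshold of another class. Without those the levels were 878, 562 and 1533 CPM, so the order of PBS and the combination turned. A single cell gave 1716 of the 5356 UMIs in PBS, and without it the level was 1396 CPM. The 15 such barcodes after LNP-cGAMP had 1304 UMIs as their median, and 12 of them also passed the threshold of another class, so their 376 CPM was not read as a tumour level. Of the other genes, Fn1 stood at 228, 234 and 306 CPM in tumour cells of PBS, anti-PD-L1 and the combination. Vcan stood at 111, 82.0 and 95.2 there. Both sets of levels include the barcodes that also passed the threshold of another class.

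Natural killer cells (Ncr1 in 90%) had 78.1 CPM of Spp1 in PBS (33 cells), 1993 in LNP-cGAMP (97 cells), 530 after anti-PD-L1 (30 cells) and 1796 after the combination (33 cells). In LNP-cGAMP 75 of the 97 cells had an Spp1 UMI and 56 had at least 10, whereas in PBS 6 of 33 had one and none had 10. In anti-PD-L1 a single cell gave 67.1% of the UMIs, and without it the level was 208 CPM. In the combination a single cell gave 347 of the 918 UMIs, and without it the level was 1263 CPM. The complement genes C1qa, C1qb and C1qc, which mark the macrophages, summed to 177 CPM in the natural killer cells of LNP-cGAMP and 9674 in its macrophages. The profile of near-empty droplets accounted for an estimated 30.6 CPM of Spp1 there. B cells stood at 4.9 to 33.6 CPM of Spp1 in all libraries. After thinning, 74.2% of the 93 natural killer cells deep enough in LNP-cGAMP and 31.6% of the 19 in PBS had Spp1. The 95% interval in PBS was 12.6% to 56.6%, and 14 of its cells were too shallow and left out. Median depth was 24330 UMIs in LNP-cGAMP and 5510 in PBS, and its part in these levels was not tested.

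**Figure D5:**
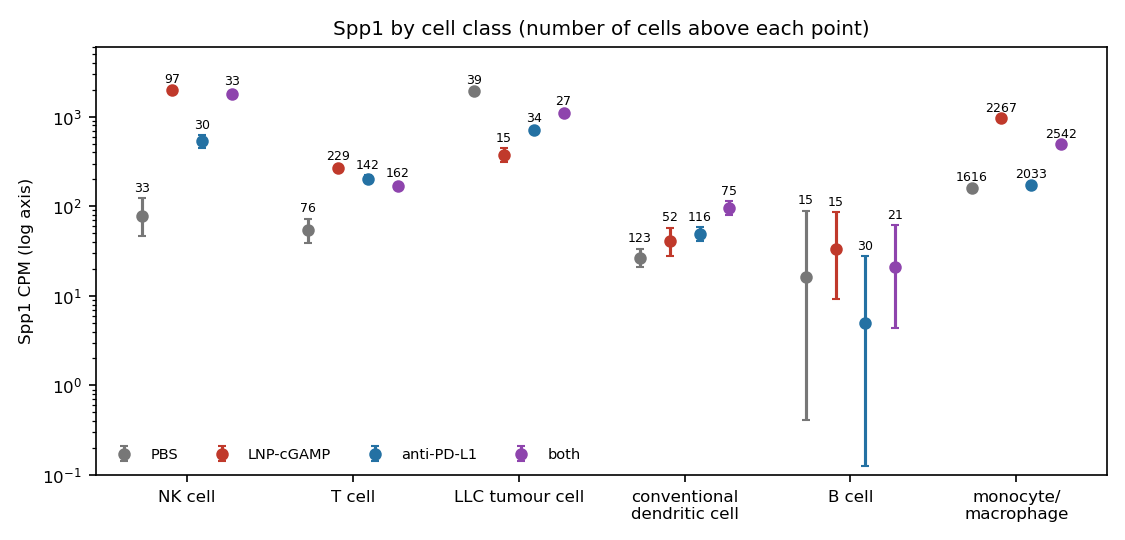
Points give Spp1 in CPM on a log axis by cell class and library, with exact 95% Poisson intervals and the number of cells above each point; most non-myeloid points rest on under 50 cells. Natural killer cells stand at 78.1 CPM in PBS and 1993 in LNP-cGAMP, and B cells stay at 33.6 CPM or below.

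The remaining genes were low in lymphocytes. In natural killer cells Fn1, Thbs1, Vcan and Ecm1 reached at most 35.5 CPM, and in T cells the highest was Ecm1 with 87.8. T cells had 54.2, 267, 202 and 168 CPM of Spp1, but 76 of the 229 in LNP-cGAMP also passed the threshold of another class, and the level of the others was 189. Cells gated as fibroblasts, 5 to 12 a library, had 1342, 1452, 4749 and 2786 CPM of Fn1, and all 32 of them also passed another class's threshold. Through these few barcodes, they held 1.3% to 13.5% of the Fn1 UMIs of a library. The 8 in PBS had 503 Spp1 UMIs, of which a single barcode gave 389, and without it their level was 347 CPM.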

How the data were processed

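The deposited matrices hold raw UMI counts for all barcodes, near-empty droplets included. Cell Ranger 3.0.2 produced them per the file headers, and mm10 is the build in the submitters' processing notes. Versions 2 and 3 of the reagent kit both appear among the labels, so the version is not given here. A barcode was kept above the lowest point of its library's log UMI density (between 300 and 5000 UMIs; 923 for PBS, 902 for LNP-cGAMP, 923 for the antibody and 1161 for the combination), with at least 200 genes and at most 10% mitochondrial UMIs. Doublets were not removed.

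Cells went to the class, then the state, whose marker sum passed a threshold in counts per 10000, set from the markers' distributions (class: monocyte/macrophage 30, neutrophil 50, T cell 8, natural killer cell 12, B cell 12, dendritic cell 20, tumour, mesothelial and fibroblast 5; states in order: Alox15 Prg4 list 8, Lyve1 2 with Ccr2 under 4, Ccr2 4, Saa3 20, Ccl8 8, Cd163 with Ccl24 2). UMIs were summed and given as CPM. Genes with at least 20 UMIs and 50 CPM in 1 library were measured; higher and lower mean 1.5-fold on CPM + 10. A state was compared at 50 or more cells. Intervals are exact 95% Poisson, binomial for ratios. With 1 library per treatment there are no p-values. The script for gene ratios was checked on simulated counts. The members, gene lists and rules were chosen with earlier results of these data known. Named genes were the 5, list genes at 50 CPM and 1.5-fold from PBS (at most 4 a list), receptors beside them, and the 3 nearest patterns. Cd44 and Cd47 were added after their values were seen.

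Python 3.11.15 with numpy 2.4.6, scipy 1.17.1 and pandas 2.3.3 was used, and edgeR 4.0.16 and DESeq2 1.42.0 gave the scaling factors of 2 alternatives. Other alternatives changed filters, pseudocount, cell weights, depth, background, gates, state shares and cells by sex-linked UMIs; splits by these UMIs and by Ccr2 level, and runs without the Alox15 Prg4 state or the top 1% of cells, were added after seeing the data.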

Additional observations from a re-analysis of the deposited data

Results flagged for a closer look

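Fn1 moved in opposite directions with the antibody depending on LNP-cGAMP, each way by at least 1.5-fold, in 4 states. The log2 ratio of the combination to LNP-cGAMP exceeded that of anti-PD-L1 to PBS by 2.32 in Lyve1 cells, 1.71 in Ccr2 cells, 2.39 in Ccl8 cells and 4.50 in cells with none of the markers. In LNP-cGAMP, Ccl8 cells and cells with none of the markers held 0.870% and 1.74% of the class's 3910 Fn1 UMIs. Near-empty droplets gave an estimated 6.05 CPM there, so the differences in these 2 groups rest on low levels. In Ccr2 cells of anti-PD-L1 with Y-linked UMIs alone, Fn1 was within 1.5-fold of PBS (806 against 957 CPM). With 1 library each, the difference was not tested, and both antibody pools hold cells with Y-linked UMIs and cells with Xist, whose part in it was not tested.

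Natural killer cells, under 50 in 3 libraries and so outside the comparisons, had more Spp1 than PBS (78.1 CPM) in each treated library: 1993 CPM in LNP-cGAMP, 530 after anti-PD-L1 and 1796 after the combination. In anti-PD-L1 1 of 30 cells gave 67.1% of these UMIs, and without it the level was 208 CPM. In the combination a single cell gave 347 of the 918 UMIs, and without it the level was 1263 CPM.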

How the results depend on the processing

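No paired analysis was possible because each group is 1 library. In LNP-cGAMP against PBS, the calls on Spp1, Fn1 and Ecm1 held under all 14 alternatives; Thbs1 and Vcan joined Fn1 (3 genes lower in place of 1) with cells weighted equally, cells thinned to 5000 UMIs and the state shares of PBS. In anti-PD-L1 against PBS, 2 genes were lower with Y-marked cells alone and 1 with the state shares of PBS or without the Alox15 Prg4 state, in place of 0. In the combination against PBS, 3 were higher with Y-marked cells alone, and 3 lower with equal weight or thinning and 2 with the state shares of PBS. Against LNP-cGAMP, 3 were higher and 0 lower with Y-marked cells alone, and 2 lower with the state shares of PBS or without the Alox15 Prg4 state. Against anti-PD-L1, 2 were higher with equal weight or thinning and 3 with Y-marked cells alone; 1 was lower with a mitochondrial limit of 20%, background RNA subtracted or second-class cells left out, as Vcan no longer passed, and 0 with Y-marked cells alone. With those cells the log2 ratio of the combination changed sign for Spp1 against LNP-cGAMP (0.049) and for Fn1 against anti-PD-L1 (0.45), as it did for Thbs1 against anti-PD-L1 in Ccl8 cells with state thresholds halved (0.026); all 3 values are within 1.5-fold. Without the filter on low counts, LNP-cGAMP against PBS had 611 genes higher and 518 lower (384 and 263 with it), 86 lower in the combination against PBS (53), and 226 higher and 136 lower against LNP-cGAMP (116 and 90). Pairs of gene and state higher in anti-PD-L1 against PBS numbered 3 with state thresholds doubled (1). The causes were not tested. Depth limits the classes of few cells, not the class sums, where a count of 0 would allow at most 0.0599 CPM.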
